A study of Mus musculus with 6 samples.

Results

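Osteopontin is a secreted, acidic and phosphorylated glycoprotein that works both as a cytokine and as a matrix protein, and it is encoded by *Spp1*. An arginine-glycine-aspartate motif in osteopontin binds integrins, heterodimers of an alpha and a beta subunit that anchor cells to the matrix, while a neighbouring site that thrombin cleavage exposes is bound by other integrins. CD44, the main receptor of hyaluronan, is a further receptor. In the lung, osteopontin is made by macrophages and injured epithelium among other cells, and it is known for its part in inflammation and fibrosis.

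The 10 genes described here are *Spp1* and 9 genes of its receptors, *Cd44* and the integrin subunit genes *Itgav*, *Itgb1*, *Itgb3*, *Itgb5*, *Itga4*, *Itga5*, *Itga8* and *Itga9*. They were found by symbol among the 54532 genes of the deposited read counts, and all 10 were among the 16568 genes with enough reads for a test. *Spp1* was chosen by its measured difference between the genotypes in these same lungs, so its values are a description and not a test. The receptor genes were picked for binding osteopontin, with earlier results of these data known.

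The libraries came from lung tissue of 3 wild-type (GR+/+) and 3 GRdim/dim mice of mixed 129/SvEv x C57BL/6 background, 10 to 16 weeks of age. GRdim/dim mice carry, in every cell, a point mutation of the glucocorticoid receptor that impairs its dimerization, and the GR+/+ mice were littermates. All 6 mice had been ventilated under anesthesia, bled into hemorrhagic shock (HS) with mean arterial pressure held at 35 mmHg over 1 h, re-transfused and resuscitated for 4 h with fluids and norepinephrine, so every value is a level after HS. Females made up 2 of the GR+/+ and 1 of the GRdim/dim mice, and the labels do not say which libraries these were.

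Each lung gave 1 poly(A)-captured library with 15687734 to 32082940 counts. Levels are given as counts scaled to library size with TMM factors (CPM), and levels of different genes are compared per kilobase of gene length (RPKM). Defining genes of lung epithelium were abundant in every library, with summed levels of 16810 to 25003 CPM for 6 alveolar type 2 genes and 15076 to 29504 CPM for 3 club cell genes. In whole lung RNA, fewer cells of a type and less RNA per cell cannot be told apart.

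*Spp1* (ENSMUSG00000029304) lies on chromosome 5 of GRCm38 from 104435118 to 104441050 on the plus strand, with 7 annotated transcripts whose exons merge into 8. A promoter of the gene is shown because *Spp1* was the gene of the family that separated the genotypes. The window covers 250 bases before and 50 bases after a RefSeq start (chr5:104434861-104435160, GRCm38.p6, plus strand). RefSeq listed 2 promoters of *Spp1*, and only this window is shown. Capitals mark letters of RUNX, ETS and CCAAT motifs on either strand.
Spp1: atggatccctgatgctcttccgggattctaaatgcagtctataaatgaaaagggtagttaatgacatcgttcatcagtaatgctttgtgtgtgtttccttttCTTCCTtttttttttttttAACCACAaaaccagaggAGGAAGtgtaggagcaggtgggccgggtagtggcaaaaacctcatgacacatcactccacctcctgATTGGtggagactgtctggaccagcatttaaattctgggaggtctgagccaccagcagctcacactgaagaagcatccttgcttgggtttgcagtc

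The RUNX letters AACCACA stood 1 time in this window, 129 to 123 bases before the start, and occurred in 5.27% of 32851 promoters of the same length. The ETS letters AGGAAG stood there 2 times without overlap and occurred in 35.4% of promoters, and the letters CCAAT stood there 1 time and occurred in 37.4%. The full palindromic glucocorticoid response element (AGAACA, 3 bases of any kind, then TGTTCT) and the letters AGAACA alone were not in the window, and they occurred in 0.00913% and 19.0% of promoters. The letters of STAT (TTCNNNGAA), AP-1 (TGANTCA) and kappaB (GGGANTTCC) motifs were not there either and occurred in 8.30%, 7.81% and 1.68% of promoters. Both strands were searched, and such matches describe letters only. Promoters of 9 of the 10 genes were in the RefSeq table, and *Spp1* was the 1 gene among them with the RUNX letters and the 1 gene with CCAAT.

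*Spp1* had 1719, 3482 and 4581 counts in GR+/+ replicates 1, 2 and 3 and 180, 88 and 90 counts in GRdim/dim replicates 1, 2 and 3. Per gene length this was 62.3, 127 and 88.3 RPKM in GR+/+ and 5.89, 2.22 and 3.53 RPKM in GRdim/dim lungs. The genotypes did not overlap, and the lowest GR+/+ library was still 10.6 times above the highest GRdim/dim library. The fitted log2 fold change of GRdim/dim over GR+/+ was -4.58 (standard error 0.39), a mean level 95.8% lower in GRdim/dim lungs.

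Relative spread was wide within both genotypes, with a coefficient of variation of 35.02% in GR+/+ and 48.0% in GRdim/dim lungs (n = 3 each). Among the genes tested, *Spp1* stood at percentile 95.8, 98.3 and 97.1 of the RPKM values in the GR+/+ libraries. In the GRdim/dim libraries it stood at percentile 53.3, 31.9 and 41.8. It was thus among the more abundant transcripts of every GR+/+ lung and near the middle of the range or below it in every GRdim/dim lung.

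Exons of *Gm42793* on the same strand cover 309 bases of *Spp1*, and 14.3% of the windows of 31 bases in its transcripts also occur in that gene. Reads of this stretch cannot be assigned with certainty. *Gm42793* itself had 9, 6 and 13 counts in GR+/+ and 0, 0 and 1 count in GRdim/dim libraries, few beside those of *Spp1*.

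**Figure D1:**
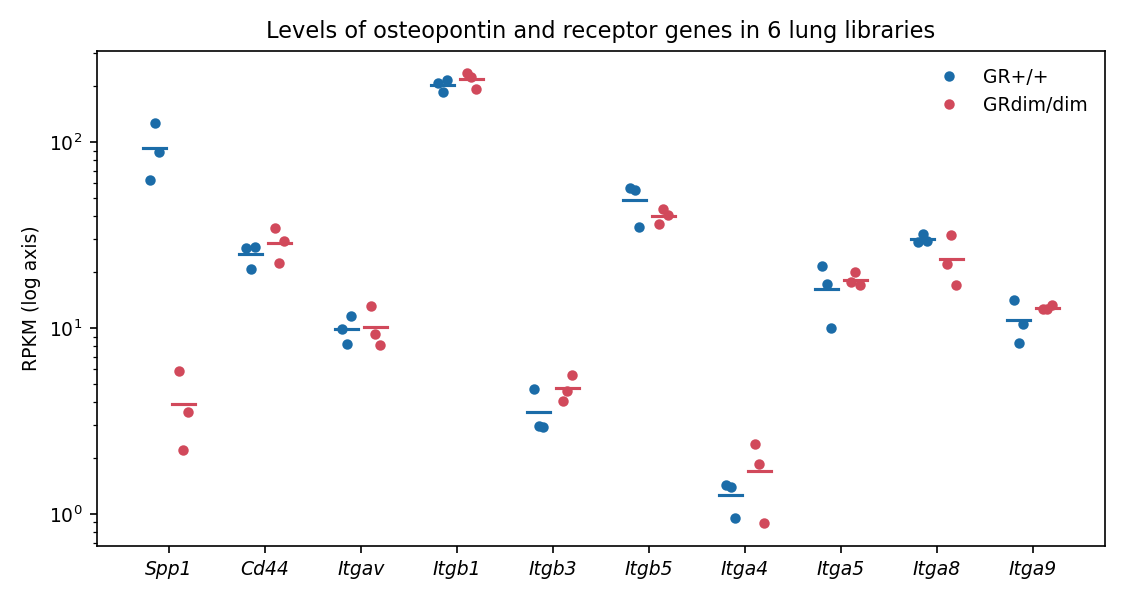
RPKM of the 10 genes on a log axis in each of 3 GR+/+ (blue) and 3 GRdim/dim (red) lung libraries, with points for libraries and lines for group means. *Spp1* lies between 62.3 and 127 RPKM in GR+/+ and between 2.22 and 5.89 RPKM in GRdim/dim libraries, while the ranges of both genotypes overlap for each receptor gene.

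RNA levels of the receptor genes were compared to see whether they differed between the genotypes as that of *Spp1* did. Of the 10 genes, 1 was a differentially expressed gene (DEG), *Spp1*. A DEG had to pass 0.05 after adjustment and to lie more than 0.5 from 0 on the log2 scale. Since *Spp1* was chosen for its difference in these libraries, its call is a description and not a test. Among all genes tested, 0.169% were DEGs, 0.0966% lower and 0.0724% higher in GRdim/dim lungs. Without GRdim/dim replicate 3, *Spp1* missed the threshold by adjustment and 0 of the 10 genes were DEGs, with a log2 fold change of -4.52 for *Spp1*. None of the 9 receptor genes was a DEG in edgeR's quasi-likelihood test or in DESeq2, which called 1.71% of its genes. At 0.05 without adjustment, edgeR counted 0 receptor genes and 9.6% of all genes tested. With a single library left out, 1 receptor gene passed 0.05 without adjustment in 4 of the 6 settings, a different one each time, and none was a DEG. These were *Itgb3* without GR+/+ replicate 1 (0.69), *Itgb5* without GR+/+ replicate 3 (-0.48), *Itga8* without GRdim/dim replicate 2 (-0.62) and *Itga4* without GRdim/dim replicate 3 (0.75). In the fit of all 6 libraries, the adjusted *p*-values of the 9 receptor genes from edgeR lay between 0.632 and 0.978. Fitted log2 fold changes lay between -0.35 (*Itga8*) and 0.44 (*Itga4*), 7 of them above and 2 below 0, with a median of 0.16 (0.057 to 0.27 with a library left out) against 0.01 over all genes tested. No receptor gene separated the genotypes without overlap, which 14.8% of all genes tested did.

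*Cd44* (ENSMUSG00000005087, chromosome 2 from 102811141 to 102901665, minus strand) encodes the hyaluronan receptor that also binds osteopontin. It was expressed at 182, 140 and 185 CPM in GR+/+ and 233, 152 and 199 CPM in GRdim/dim libraries. GRdim/dim replicate 2 lay within the GR+/+ range and replicates 1 and 3 lay above it. The log2 fold change was 0.21 (standard error 0.20, 95% interval -0.24 to 0.65), so that both a modest decrease and a rise of 1.57-fold lie inside the interval.

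Among the beta subunits, *Itgb1* (ENSMUSG00000025809, chromosome 8 from 128685654 to 128733200) encodes the common partner of the alpha subunits of *Itga4*, *Itga5*, *Itga8* and *Itga9* and one of the partners of that of *Itgav*. Its level was 848, 760 and 884 CPM in GR+/+ and 957, 913 and 792 CPM in GRdim/dim libraries. These ranges overlapped, and *Itgb1* had the narrowest spread of the 10 genes, with a highest library 1.26 times the lowest. Its log2 fold change of 0.10 had a standard error of 0.19 and a 95% interval from -0.32 to 0.51. A fall of the size seen in *Spp1* was far outside this interval and outside that of each other receptor gene, the lowest bound of which was -0.85 (*Itga8*).

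*Itgb3* (ENSMUSG00000020689, chromosome 11 from 104608000 to 104670476) and *Itgb5* (ENSMUSG00000022817, chromosome 16 from 33829665 to 33949338) encode further beta partners of the *Itgav* product. *Itgb3* was expressed at 27.8, 17.5 and 17.4 CPM in GR+/+ and 23.8, 27.2 and 33.1 CPM in GRdim/dim libraries. GR+/+ replicate 1 lay inside the GRdim/dim range, and the log2 fold change was 0.43 (standard error 0.24, 95% interval -0.11 to 0.96). *Itgb5* had 201, 195 and 124 CPM in GR+/+ and 129, 155 and 145 CPM in GRdim/dim libraries, with GR+/+ replicate 3 the lowest of all 6. Its log2 fold change was -0.28 (standard error 0.21, 95% interval -0.74 to 0.18), and 7.86% of its sequence windows also occur in *Gm38317*.

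Among the alpha subunits that recognize the arginine-glycine-aspartate motif, *Itgav* (ENSMUSG00000027087, chromosome 2 from 83724397 to 83806916) had 106, 88.0 and 125 CPM in GR+/+ and 141, 99.7 and 86.9 CPM in GRdim/dim libraries. Both the highest and the lowest library were GRdim/dim, and the log2 fold change was 0.03 (standard error 0.21, 95% interval -0.44 to 0.51). The sign of this value turned without GR+/+ replicate 2 (-0.08), without GRdim/dim replicate 1 (-0.18) and with a covariate for sex-linked expression (-0.0030).

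*Itga5* (ENSMUSG00000000555, chromosome 15 from 103344286 to 103366763, minus strand), the alpha subunit of the classical fibronectin receptor, was expressed at 106, 85.4 and 49.3 CPM in GR+/+ and 87.2, 98.3 and 83.8 CPM in GRdim/dim libraries. All GRdim/dim libraries lay inside the GR+/+ range, which GR+/+ replicate 3 opened downward. The log2 fold change of 0.16 (standard error 0.25) became -0.10 without that library.

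*Itga8* (ENSMUSG00000026768, chromosome 2 from 12106632 to 12301922, minus strand) encodes the alpha subunit that is found on mesenchymal cells such as fibroblasts and smooth muscle. Its GR+/+ libraries lay close together at 214, 236 and 216 CPM, and its GRdim/dim libraries were spread at 162, 235 and 126 CPM. GRdim/dim replicate 2 reached the GR+/+ level and replicates 1 and 3 lay below all GR+/+ libraries. The log2 fold change was -0.35 (standard error 0.22, 95% interval -0.85 to 0.15). The antisense gene *E030013I19Rik* overlaps 372 bases of its exons and had 80, 129 and 163 counts in GR+/+ and 71, 100 and 39 counts in GRdim/dim libraries, and the use of strand in counting is not given in the sources used here.

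*Itga4* and *Itga9* encode the related alpha subunits that bind the site exposed by thrombin cleavage, *Itga4* mainly on leukocytes. *Itga4* (ENSMUSG00000027009, chromosome 2 from 79255426 to 79333123) had 20.1, 19.6 and 13.2 CPM in GR+/+ and 33.1, 26.1 and 12.5 CPM in GRdim/dim libraries. GRdim/dim replicates 1 and 2 lay above all GR+/+ libraries and replicate 3 lay below them all, and the log2 fold change was 0.44 (standard error 0.33, 95% interval -0.29 to 1.17). Exons of *Cerkl* on the other strand overlap 1124 bases of *Itga4*, and *Cerkl* had at most 30 counts in a library.

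*Itga9* (ENSMUSG00000039115, chromosome 9 from 118606690 to 118901003) was expressed at 109, 64.1 and 81.3 CPM in GR+/+ and 97.3, 96.7 and 102 CPM in GRdim/dim libraries. The GRdim/dim libraries lay inside the GR+/+ range and almost on each other, with a coefficient of variation of 2.72% against 26.8% in GR+/+ lungs. The log2 fold change was 0.22 (standard error 0.20, 95% interval -0.23 to 0.66).

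**Figure D2:**
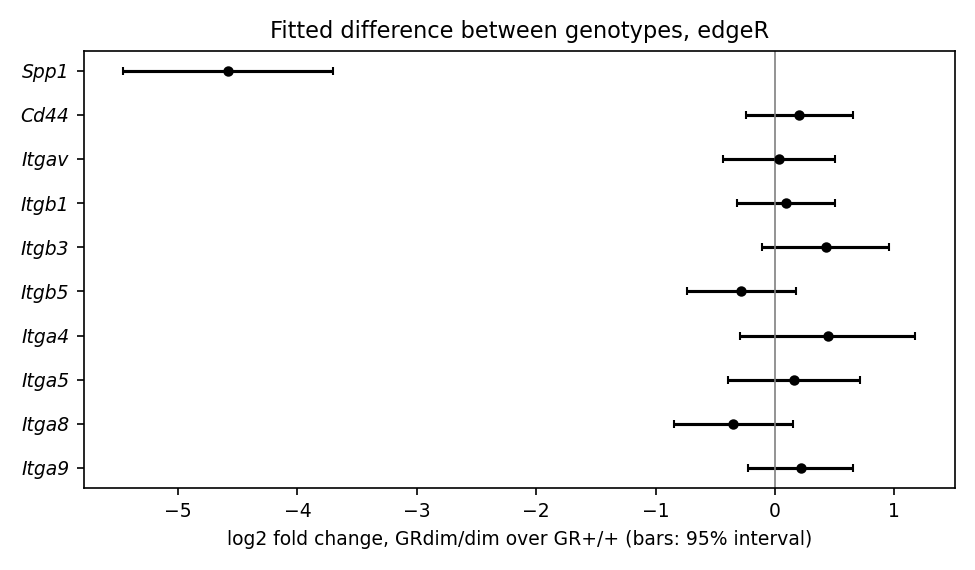
Fitted log2 fold change of GRdim/dim over GR+/+ for the 10 genes from edgeR, with bars for the 95% interval. *Spp1* stands alone at -4.58, and the intervals of all 9 receptor genes include 0.

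Ordered by RPKM, *Itgb1* was the most abundant of the 10 genes in both genotypes, with 204 ± 15.6 RPKM in GR+/+ and 217 ± 20.9 RPKM in GRdim/dim lungs (SD, n = 3). In every GR+/+ library *Spp1* came next, and no library of *Spp1* overlapped with one of *Itgb1* above it or of *Itgb5* below it (48.9 ± 12.1 RPKM). *Itga8* and *Cd44* followed with 30.1 ± 1.68 and 24.9 ± 3.71 RPKM, and their libraries did not overlap. *Cd44*, *Itga5*, *Itga9* and *Itgav* formed a run in which each neighbour overlapped with the next, and *Itgb3* and *Itga4* stood below them at 3.54 ± 1.02 and 1.26 ± 0.274 RPKM.

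In GRdim/dim lungs *Spp1* had place 8 in replicate 1 and place 9 of 10 in replicates 2 and 3, with a mean of 3.88 ± 1.86 RPKM (SD, n = 3). Its libraries there overlapped both with those of *Itgb3* above and of *Itga4* below it. The receptor genes kept the same order except that *Cd44* (28.8 ± 5.97 RPKM) stood above *Itga8* (23.6 ± 7.52 RPKM), and their libraries overlapped. Summed over the 9 receptor genes, the level was 372, 332 and 344 RPKM in GR+/+ and 377, 370 and 326 RPKM in GRdim/dim libraries, of which *Itgb1* made up 55.8 to 62.9%. The ratio of *Spp1* to this sum ran from 0.167 to 0.381 in GR+/+ and from 0.0060 to 0.0156 in GRdim/dim libraries, a difference carried by *Spp1*.

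Other genes around osteopontin were taken in 8 lists without the receptors, 92 tested genes in all. None was a DEG in edgeR's quasi-likelihood test, and 2 were DEGs in DESeq2, *Tnfaip6* and *Jun*. At 0.05 without adjustment, 11 of the 92 were higher and 11 lower in GRdim/dim lungs, where 4.91% of all genes tested were higher and 4.68% lower. The median log2 fold change over the 92 genes was 0.07. Since these genes were chosen with earlier results known, the counts describe the lists and are not a test of them.

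**Figure D3:**
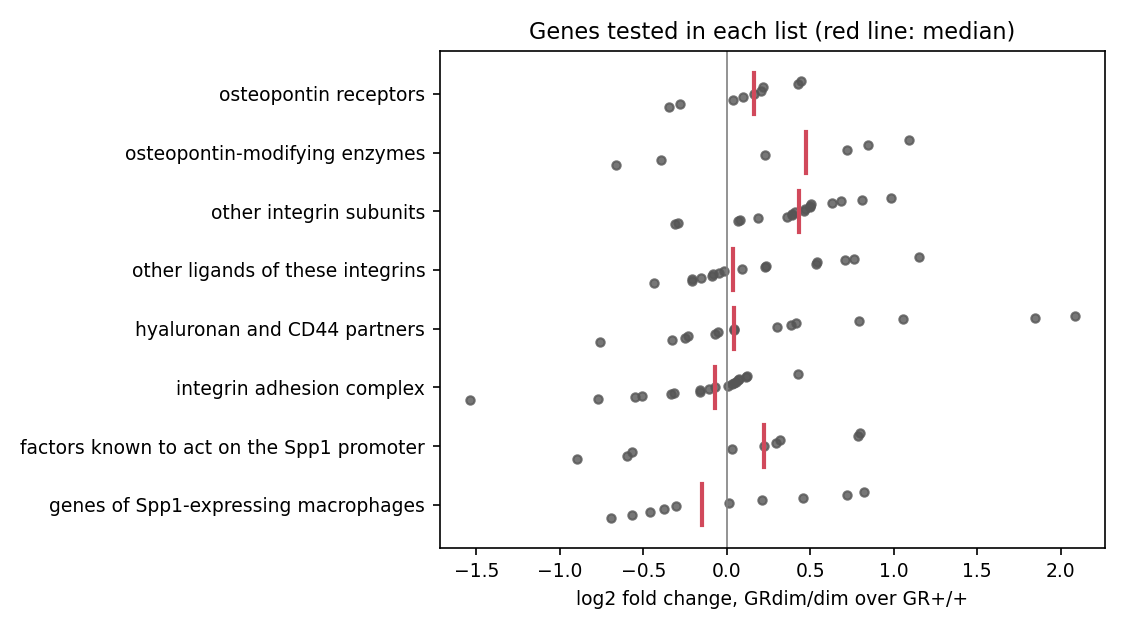
Log2 fold change of GRdim/dim over GR+/+ for each gene tested in the receptor list and in 7 further lists, with a point for a gene and a red line for the list's median. The medians lie between -0.15 and 0.48, and single genes spread from -1.54 (*Ilk*) to 2.08 (*Tnfaip6*).

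The SIBLING family, the group of small integrin-binding phosphoproteins of bone and teeth to which osteopontin belongs, was close to silent in these lungs. *Ibsp* and *Mepe* had 0 counts in all 6 libraries, *Dmp1* had 1 count in 1 library, and *Dspp* had at most 6 counts in a library. None of the 4 genes entered the test, so that *Spp1* was the family's 1 member with a measurable level.

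Of 9 genes of enzymes that cleave or modify osteopontin, 6 were tested, 4 of them higher and 2 lower, with a median log2 fold change of 0.48. *Mmp3*, a matrix metalloproteinase gene, had 37.8, 8.69 and 13.2 CPM in GR+/+ and 52.7, 23.7 and 50.5 CPM in GRdim/dim libraries, a log2 fold change of 1.09 (standard error 0.53; edgeR adjusted *p* = 0.571). *Tgm2*, a transglutaminase gene and the most abundant of the list, had 374, 249 and 284 CPM in GR+/+ and 257, 157 and 159 CPM in GRdim/dim libraries, a log2 fold change of -0.66 (standard error 0.24; edgeR adjusted *p* = 0.425). The genotypes overlapped for both genes. *F2* and *Cpb2* had too few reads for the test, and *Mmp7* had 0 counts in all 6 libraries.

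Of the other integrin subunits, 16 of 18 genes lay above 0, as did 8439 of all 16568 genes tested. The median log2 fold change was 0.43, against 0.01 over all genes tested. At 0.05 without adjustment 3 genes passed, all of them higher, where 4.91% of all genes tested were higher. *Itgam*, which encodes the alpha subunit of the myeloid integrin Mac-1, had 12.4, 10.97 and 6.89 CPM in GR+/+ and 27.4, 13.9 and 18.3 CPM in GRdim/dim libraries. The genotypes did not overlap for *Itgam*, 1 of 5 such genes among the 18, against 14.8% of all genes tested. The log2 fold change of *Itgam* was 0.98 (standard error 0.31; edgeR adjusted *p* = 0.342). *Itga3*, the most abundant of the list and an epithelial laminin receptor subunit, had a log2 fold change of 0.07 (standard error 0.18). *Itgb4*, which encodes a beta subunit found in hemidesmosomes, had the lowest at -0.31 (standard error 0.20).

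Integrins of this list are carried in part by leukocytes, whose marker genes were summed in each library. Summed over 7 B cell genes, the levels were 84.1 to 173 CPM in GR+/+ and 203 to 717 CPM in GRdim/dim libraries. For 8 T cell genes they were 22.6 to 42.4 and 43.8 to 59.5 CPM, and for 6 NK cell genes 6.69 to 19.7 and 23.8 to 38.5 CPM. These 3 sums did not overlap between the genotypes. Those of T cells came close, with 42.4 CPM in GR+/+ replicate 2 and 43.8 CPM in GRdim/dim replicate 1. Every gene on these 3 lists had a log2 fold change above 0. None was a DEG in edgeR. An unadjusted edgeR *p*-value under 0.05 was found for 5 B cell, 4 T cell and 4 NK cell genes, all higher. Among all genes tested, 4.91% passed this threshold and were higher in GRdim/dim lungs. DESeq2 called 1, 1 and 0 genes of these lists, against 1.71% of all its genes. The B cell sum was carried by the immunoglobulin genes *Ighm* and *Igkc*, and without them, an alternative added after the values were seen, the other 5 genes summed to 22.9 to 54.7 CPM in GR+/+ and 54.1 to 84.1 CPM in GRdim/dim libraries and overlapped. The sum over 9 neutrophil genes was 275 to 521 CPM in GR+/+ and 367 to 1127 CPM in GRdim/dim libraries and did overlap. Of the 8 neutrophil genes tested, 7 lay above 0 with a median log2 fold change of 0.82, 3 passed 0.05 without adjustment, and none was a DEG in edgeR. DESeq2 called 2 of them, *Ngp* (2.73) and *Retnlg* (1.10), which were named after their values were seen. The genotypes did not overlap for these 2 of the 8 genes, against 14.8% of all genes tested. The part of these cells in the integrin values was not tested, and no marker on these 4 lists was at 0 in all libraries.

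**Figure D4:**
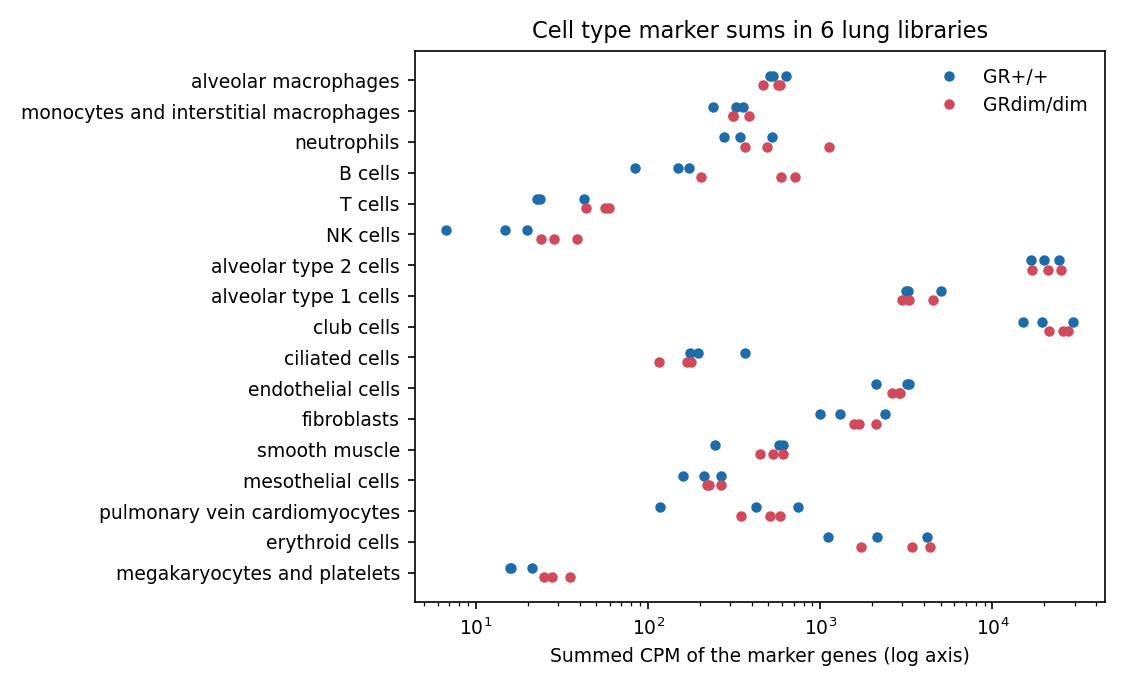
Summed CPM of the marker genes of 17 cell types on a log axis, with a point for each of 3 GR+/+ (blue) and 3 GRdim/dim (red) libraries. B cell (with *Ighm* and *Igkc*), T cell, NK cell and platelet (with *Pf4*) sums of the genotypes are apart. The sums of alveolar macrophages (with *Car4*), of monocytes with interstitial macrophages and of lung epithelium overlap. Of 4 platelet genes tested, 1 kept the genotypes apart, *Pf4* (log2 fold change 1.32), against 14.8% of all genes tested. Below 0 lay 1 of the 4, *Gp9* (-0.12). Both were named after their values were seen.

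The macrophage sums bear on *Spp1* as well. The 8 alveolar macrophage genes summed to 510 to 635 CPM in GR+/+ and 464 to 583 CPM in GRdim/dim libraries, and 10 genes of monocytes and interstitial macrophages summed to 237 to 355 and 310 to 385 CPM. Both sums overlapped between genotypes, with medians of -0.20 and 0.10 for the log2 fold changes of their genes. The overlap of the alveolar macrophage sum rested on *Car4*, which capillary endothelium also expresses and which had 151 to 250 CPM in GR+/+ and 225 to 360 CPM in GRdim/dim libraries. Without it, an alternative added after the values were seen, the other 7 genes summed to 359 to 385 CPM in GR+/+ and 223 to 239 CPM in GRdim/dim libraries and did not overlap. That separation rested on *Chil3*, a chitinase-like lectin gene also named after its values were seen. It had the highest CPM in that sum, with 244, 250 and 264 CPM in GR+/+ and 161, 156 and 95.6 CPM in GRdim/dim libraries. Its log2 fold change was -0.88 (standard error 0.21, edgeR adjusted *p* = 0.202, DESeq2 adjusted *p* = 0.0172). Of the 8 alveolar macrophage genes, 3 lay above and 5 below 0. The genotypes did not overlap for 1 of them, *Chil3*, against 14.8% of all genes tested. The part of these cells in the *Spp1* values was not tested. No gene of these 2 lists was a DEG in edgeR. An unadjusted edgeR *p*-value under 0.05 was found for *Chil3* (lower), *Car4* (0.72, higher) and 1 gene of the other list (higher). Among all genes tested, 4.68% were lower and 4.91% higher at this threshold. DESeq2 called 1 alveolar macrophage gene, *Chil3*, and 0 of the other list, against 1.71% of all its genes. Genes that accompany *Spp1* in macrophages of injured lung, 10 in number, had 5 log2 fold changes above and 5 below 0, with a median of -0.15. *Trem2*, a lipid-sensing receptor gene, had the highest (0.82, standard error 0.31), with 2.99, 4.62 and 3.65 CPM in GR+/+ and 8.63, 5.82 and 5.42 CPM in GRdim/dim libraries. *Lpl*, the lipoprotein lipase gene, had the lowest (-0.70, standard error 0.27), with 355, 387 and 316 CPM in GR+/+ and 269, 260 and 124 CPM in GRdim/dim libraries, and *Cd9*, with the highest CPM over all 6 libraries, had 0.21 (standard error 0.18). The genotypes did not overlap for 4 of the 10 genes, against 14.8% of all genes tested, with *Trem2* higher and *Lpl*, *Gpnmb* (-0.46) and *Ctsk* (-0.57) lower in GRdim/dim lungs. The same 4 passed 0.05 without adjustment, and none was a DEG in edgeR or in DESeq2. *Gpnmb* and *Ctsk* were named after their values were seen.

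Factors known to act on the *Spp1* promoter included *Jun*, a subunit of AP-1, with 652, 439 and 437 CPM in GR+/+ and 230, 350 and 239 CPM in GRdim/dim libraries. Every GRdim/dim library lay below every GR+/+ library. The genotypes did not overlap for 2 of the 9 factors, against 14.8% of all genes tested. The log2 fold change of *Jun* was -0.90 (standard error 0.24, edgeR adjusted *p* = 0.251, DESeq2 adjusted *p* = 0.0234). *Runx2*, a RUNX factor of bone formation, had the highest value of the 9 factors, 0.80 (standard error 0.30), with 10.8, 15.7 and 9.31 CPM in GR+/+ and 25.4, 23.5 and 13.1 CPM in GRdim/dim libraries. Over the 9 genes, 6 were above and 3 below 0, with a median of 0.22.

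Of 16 tested genes of other ligands that these integrins bind, 8 were above and 8 below 0, with a median log2 fold change of 0.04. *Thbs1*, the thrombospondin-1 gene, had the highest at 1.15 (standard error 0.51; edgeR adjusted *p* = 0.520), and its libraries were widely spread, with 564, 172 and 208 CPM in GR+/+ and 1073, 356 and 668 CPM in GRdim/dim lungs. *Npnt*, which encodes nephronectin, the main ligand of the *Itga8* integrin, had the lowest at -0.44 (standard error 0.20; edgeR adjusted *p* = 0.520). Its libraries did not overlap, with 625, 496 and 443 CPM in GR+/+ and 408, 406 and 341 CPM in GRdim/dim lungs. It was 1 of 2 such genes among the 16, against 14.8% of all genes tested. *Vwf*, with the highest CPM over all 6 libraries though below *Thbs1* in GRdim/dim lungs, had a log2 fold change of -0.21 (standard error 0.22).

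On the hyaluronan side of CD44, 15 genes were tested, 9 above and 6 below 0, with a median log2 fold change of 0.04. *Tnfaip6*, whose product binds and remodels hyaluronan in inflammation, had 2.15, 0.839 and 0.826 CPM in GR+/+ and 3.94, 3.20 and 8.91 CPM in GRdim/dim libraries. The genotypes did not overlap, as for 4 of the 15 genes and 14.8% of all genes tested. The log2 fold change of *Tnfaip6* was 2.08 (standard error 0.52, edgeR adjusted *p* = 0.223, DESeq2 adjusted *p* = 0.00721). *Hyal1*, a lysosomal hyaluronidase gene, had the lowest at -0.76 (standard error 0.29), and *Msn*, which encodes the CD44 anchor moesin, had the highest CPM of the list and a log2 fold change of 0.04 (standard error 0.23).

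Of 19 genes of the intracellular integrin adhesion complex, 9 were above and 10 below 0, with a median of -0.07. *Tns1*, a tensin gene and the most abundant, had 2906, 2835 and 2177 CPM in GR+/+ and 1876, 1848 and 1695 CPM in GRdim/dim libraries. These did not overlap, as for 3 of the 19 genes and 14.8% of all genes tested. The log2 fold change of *Tns1* was -0.55 (standard error 0.21, edgeR adjusted *p* = 0.439). *Fermt3*, the kindlin gene of blood cells, had the highest at 0.43 (standard error 0.27). *Ilk* had the lowest at -1.54 (standard error 0.70), but only 2 to 52 counts in a library. Exons of *Taf10* and *Rrp8* on the other strand overlap 2106 and 355 of its 2744 bases. Its reads are therefore uncertain, and the few counts need not mean a low level.

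The genes around *Spp1* were examined to see whether the difference reached beyond it. Of 18 other genes tested within 1 Mb on either side, none was a DEG in edgeR or in DESeq2, and 5 of the 18 passed 0.05 without adjustment in edgeR, against 9.6% of all genes tested. Of these 5, *Pkd2* was lower and 4 guanylate-binding protein genes were higher in GRdim/dim lungs, *Gbp4* (1.70), *Gbp6* (1.58), *Gbp9* (1.61) and *Gbp11* (1.61), which start 704 to 911 kb from *Spp1* and were named after their values were seen. Before its start, *Sparcl1*, which encodes a matrix protein of the SPARC family, lies 321 kb away and had a log2 fold change of -0.07 (standard error 0.23), and *Nudt9* and *Gm26703* had -0.12 and 0.16 (standard errors 0.26 and 0.47). *Pkd2*, the polycystin-2 gene 18.4 kb beyond the end of *Spp1*, had 290, 262 and 215 CPM in GR+/+ and 203, 202 and 140 CPM in GRdim/dim libraries. Its libraries did not overlap, which held for 14.8% of all genes tested. The log2 fold change of *Pkd2* was -0.50 (standard error 0.20, edgeR adjusted *p* = 0.475). *BC005561* and *D930016D06Rik* had -0.68 and 0.23 (standard errors 0.58 and 0.19).

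**Figure D5:**
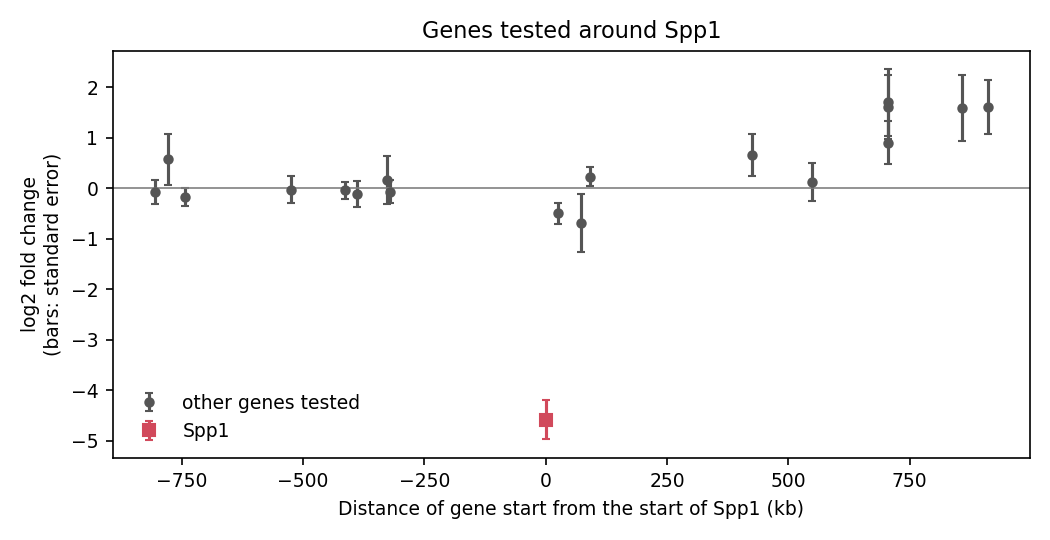
Log2 fold change of GRdim/dim over GR+/+ against the distance in kb of each gene's start from that of *Spp1*, with bars for the standard error. *Spp1* (red square) stands at -4.58, and the 18 other genes tested lie between -0.68 and 1.70, the highest of them *Gbp4*, which was picked out after its value was seen.

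The genes most like *Spp1* were ranked by Pearson's r of log2 CPM over the 6 libraries, among 1408 genes whose level spans at least 2 log2 units. The libraries fall into the 2 genotypes, so r mainly carries their difference and has no *p*-value here. The 5 nearest were *Gm10032* (0.98), *B530045E10Rik* (0.98), *Lrtm2* (0.98), *Reg3g* (0.98) and *Rbfox3* (0.97), and between 1 and 4 of them stayed among the nearest 5 when a library was left out. *Reg3g*, an antibacterial lectin gene of mucosal epithelium, had 64, 124 and 165 counts in GR+/+ and 19, 3 and 4 counts in GRdim/dim libraries, and the log2 fold change was -3.56 (standard error 0.63).

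Among the others, *Lrtm2*, a leucine-rich repeat membrane protein gene, had 58.2, 69.7 and 68.3 CPM in GR+/+ and 22.9, 12.3 and 22.8 CPM in GRdim/dim libraries. *Rbfox3* had 7.95, 13.7 and 7.75 CPM in GR+/+ and 1.46 to 1.94 CPM in GRdim/dim libraries, and the long noncoding *B530045E10Rik* had means of 5.02 ± 1.39 and 0.911 ± 0.223 CPM (SD, n = 3). Both kept the genotypes apart at low levels. *Gm10032*, also noncoding, had 15, 23 and 30 counts in GR+/+ and 0 in every GRdim/dim library, which is at least 5.55-fold lower with a floor of 3 counts per library.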

How the data were processed

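The authors deposited raw counts of reads per Ensembl gene for 6 lung libraries, 1 per mouse, without normalization. The submitters' notes name mm10 and DESeq2, while the aligner, the counting tool and the use of strand are not given in the sources used here. Coordinates of all 10 genes were identical in GENCODE M21 (GRCm38).

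Counts were analysed in R 4.3.3 with edgeR 4.0.16 (filterByExpr, TMM and the robust quasi-likelihood fit and test), and *p*-values were adjusted by Benjamini-Hochberg over 16568 genes. Standard errors were taken from the fit. DESeq2 1.42.0 was run on the same genes. RPKM used the gene length deposited with the counts. Log2 CPM for r had a prior count of 2.

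Libraries of 1 genotype were further apart than sampling noise, with a chi-square per degree of freedom of 20.9 to 70.1 (noise gives about 1), and were kept separate. Each came from its own mouse.

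The 10 genes, the gene lists and the tests were chosen with earlier results of these data known. Named were the 10 genes, the 5 genes most like *Spp1*, the nearest 3 tested genes on each side of it and, from each list, DEGs, the genes with the highest and lowest log2 fold change and the gene with the highest mean CPM. Alternatives were RLE scaling, other filters on low counts, DESeq2, blocking on replicate number, adjusting for sex-linked expression, calls by *p*-value alone and leaving out single libraries. The procedure was tested on simulated data. Protein and histology measurements were not analysed here.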

Additional observations from a re-analysis of the deposited data

How the results depend on the processing

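*Spp1* kept its direction under all 12 alternatives, with log2 fold changes between -5.02 and -4.28. It was a DEG in 11 of them, which describes a gene chosen for its difference and is not a test. Without GRdim/dim replicate 3 it missed the threshold, so that the number of DEGs among the 10 genes ranged from 0 to 1 with a library left out. Over 108 values of receptor genes under alternatives, 104 kept their direction and none became a DEG. With a library left out, *Itgav* ranged from -0.18 to 0.17, *Itga5* from -0.10 to 0.42, *Itga4* from 0.14 to 0.75, *Itga8* from -0.62 to -0.16, *Itga9* from 0.057 to 0.44, *Itgb3* from 0.29 to 0.69, *Itgb5* from -0.48 to -0.16, *Itgb1* from 0.040 to 0.17 and *Cd44* from 0.064 to 0.36. The 4 that turned were *Itgav* without GR+/+ replicate 2 (-0.08), without GRdim/dim replicate 1 (-0.18) and with the sex-linked covariate (-0.0030), and *Itga5* without GR+/+ replicate 3 (-0.10). Without a filter on low counts 522 genes were DEGs and with DESeq2 272, against 28, and 10 and 2 of them were in the pathway lists, against 0. With a library left out, 4 to 22 genes were DEGs, with 4 without GR+/+ replicate 2, 12 without GR+/+ replicate 1, 14 without GRdim/dim replicate 3 and 17 without GR+/+ replicate 3, and 1 to 4 of the 5 genes most like *Spp1* stayed nearest. The causes were not tested. With the replicate number as a block 34 genes were DEGs and *Spp1* stayed one. Libraries of the same number had correlations of 0.22, 0.036 and -0.055 between their deviations, and 3 of 6 libraries correlated best with their own number, so the numbers were not taken as pairs. The lowest count of *Spp1* in a library was 88.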
